A study of Rattus norvegicus with 31 samples.

Results

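The Cyp3a family of cytochrome P450 enzymes was followed in the livers of female Wistar rats that had been given pesticides alone or in binary mixtures. A row of the gene table was taken as a family member when its gene name started with Cyp3a in any letter case. Of 26312 rows, 4 met this rule, namely Cyp3a18 (ENSRNOG00000000969), Cyp3a23/3a1 (ENSRNOG00000047745), CYP3A23/3A1 (ENSRNOG00000032560) and Cyp3a62 (ENSRNOG00000001379), and all 4 were among the 19904 genes tested. The names of ENSRNOG00000047745 and ENSRNOG00000032560 differ only in letter case, so the identifier is given wherever these rows are told apart.

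RNA-seq of total RNA was available for 31 rats in 7 groups, all killed after 28 days of daily oral gavage in carboxymethyl-cellulose. Control rats (n = 8) received the vehicle only. The neonicotinoid insecticide thiacloprid (THI, n = 4) was dosed at 108 mg/kg bw/day, the azole fungicide imazalil (IMZ, n = 4) at 93 and the neonicotinoid clothianidin (CTD, n = 3) at 288. THI + IMZ (n = 4) combined 54 with 46 mg/kg bw/day, THI + CTD (n = 4) combined 54 with 134, and IMZ + CTD (n = 4) combined 46 with 135. All rats were adults of the outbred strain Crl:WI, and the study's methods name the CTD group among those in which rats were killed in moribund condition. Only the high dose groups of the study were sequenced, and only females were studied. The 6 hepatocyte markers (Alb, Apoa1, Ttr, Tf, Serpina1 and Hnf4a) were above 0 in every group and summed to between 155820 and 245150 CPM (counts per M counted reads, scaled by the trimmed mean of M-values) in each library. Libraries held between 31.8 and 101 M counted reads, with a median of 41 M, and the deepest belonged to the Control group. In bulk liver, fewer cells of a type and less RNA per cell cannot be told apart.

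CYP3A enzymes oxidise a wide range of drugs, steroids and pesticides in the hepatocyte. Their genes are classic targets of the pregnane X receptor (PXR, gene Nr1i2), a nuclear receptor that binds foreign chemicals, pairs with the retinoid X receptor and binds repeated hexamers in target promoters and enhancers. The constitutive androstane receptor (CAR, gene Nr1i3) shares many of these binding elements and is best known for inducing the Cyp2b genes.

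The promoters of the family are shown as a description of the genes. A link between their sequence and the changes with treatment was not tested. RefSeq's table for build GRCr8, which is not the Rnor_5.0 build of the counts, lists 8 Cyp3a genes on chromosome 12, of which 3 matched the 4 rows by symbol or synonym, since Cyp3a23-3a1 carries the synonym of both CYP3A23/3A1 rows. Cyp3a2, Cyp3a9, Cyp3a73, Cyp3a2l1 and Cyp3a71-ps had no row by symbol or synonym and were not analysed here. The sequences run from 250 bases before to 50 bases after the annotated start, 5′ to 3′ on the strand of the gene. Capitals mark AGTTCA and AGGTCA hexamers, searched on both strands. In Cyp3a23-3a1 they also cover the 3 bases between the hexamers of the direct repeat given below. Cyp3a18 lies at chr12:13994062-13994361 on the plus strand, Cyp3a23-3a1 at chr12:14398754-14399053 on the minus strand and Cyp3a62 at chr12:21511513-21511812 on the plus strand.
Cyp3a18: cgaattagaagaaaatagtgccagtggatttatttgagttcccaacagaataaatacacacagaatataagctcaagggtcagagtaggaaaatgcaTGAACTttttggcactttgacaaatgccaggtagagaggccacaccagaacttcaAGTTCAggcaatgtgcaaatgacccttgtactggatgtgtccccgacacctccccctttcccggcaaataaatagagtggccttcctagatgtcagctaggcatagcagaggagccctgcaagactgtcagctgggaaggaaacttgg
Cyp3a23-3a1: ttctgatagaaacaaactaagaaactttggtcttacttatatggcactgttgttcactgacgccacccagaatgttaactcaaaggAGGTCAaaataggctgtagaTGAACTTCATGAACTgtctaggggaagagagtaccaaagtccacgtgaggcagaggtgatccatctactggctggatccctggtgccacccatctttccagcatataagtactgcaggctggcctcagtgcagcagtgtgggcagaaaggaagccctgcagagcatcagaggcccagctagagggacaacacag
Cyp3a62: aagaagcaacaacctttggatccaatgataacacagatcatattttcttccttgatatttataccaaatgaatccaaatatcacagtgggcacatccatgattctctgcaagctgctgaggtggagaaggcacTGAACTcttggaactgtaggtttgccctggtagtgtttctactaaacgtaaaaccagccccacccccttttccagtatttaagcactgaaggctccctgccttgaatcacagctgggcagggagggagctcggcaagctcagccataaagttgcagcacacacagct

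Of these 3 windows, that of Cyp3a23-3a1 alone held a direct repeat of the hexamer with a spacer of 3 bases, AGTTCANNNAGTTCA, which is TGAACTTCATGAACT as read on the strand of the gene; it overlaps the AGTTCA hexamers counted in that window. This exact repeat stood in 2 of 33469 RefSeq promoters of the same length, or 0.00598%, a count that includes the Cyp3a23-3a1 window itself. The other repeats searched were AGTTCANNNNAGTTCA, found in 0.012% of promoters, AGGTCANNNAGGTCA, in 0.0239%, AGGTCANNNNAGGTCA, in 0.00598%, AGGTCAAAGGTCA, in 0.00896%, and TGAACTNNNNNNAGTTCA and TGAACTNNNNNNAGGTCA, each in 0% of promoters, and none of these was in the 3 windows. The lone hexamers are common, AGTTCA being in 14.5% and AGGTCA in 16.2% of promoters. The Cyp3a18 window held AGTTCA 2 times and the Cyp3a62 window 1 time, and TATAAA, present in 14.2% of promoters, was matched on the opposite strand of the Cyp3a62 window only. A match describes letters and does not show that a receptor binds there.

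Cyp3a23/3a1 (ENSRNOG00000047745) was up-regulated by all 6 treatments. Its level in the Control livers ran from 0.0609 to 0.247 CPM, with a median of 0.128. The THI rats measured 1.64, 1.73, 1.32 and 1.48 CPM, and the IMZ rats measured 1.52, 2.16, 3.09 and 0.973. The CTD rats measured 0.754, 0.904 and 0.369 CPM. Every rat of these 3 groups lay above the highest Control rat, and the CTD rats lay below all THI and IMZ rats. How many other genes separated these treatments in this way was not counted. By edgeR's quasi-likelihood test, the log2 difference of THI against CTD, 1.18 ± 0.42 (SE), was not called for this row (adjusted p = 0.0972).

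With the mixtures, Cyp3a23/3a1 (ENSRNOG00000047745) measured 1.69, 1.05, 0.752 and 1.14 CPM in THI + IMZ, and 0.554, 2.19, 1.00 and 1.47 CPM in THI + CTD. In IMZ + CTD it measured 0.953, 0.681, 0.353 and 0.706 CPM. No mixture rat overlapped the Control range, and the lowest IMZ + CTD rat lay below the lowest CTD rat.

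In the edgeR quasi-likelihood fit over all genes, Cyp3a23/3a1 (ENSRNOG00000047745) changed by a log2 fold change of 3.48 ± 0.35 (SE) with THI (adjusted p = 1.15e-07), of 3.80 ± 0.34 with IMZ (adjusted p = 2.7e-08) and of 2.30 ± 0.40 with CTD (adjusted p = 0.000141). Of the mixtures, THI + IMZ gave 3.06 ± 0.35 (adjusted p = 1.82e-06), THI + CTD gave 3.23 ± 0.35 (adjusted p = 4.45e-07) and IMZ + CTD gave 2.28 ± 0.37 (adjusted p = 0.000886). As linear folds these were 11.1, 13.9, 4.92, 8.36, 9.39 and 4.86 in the same order. Ranked by p among the 19904 genes, the row stood at place 5 for THI, 2 for IMZ, 8 with THI + IMZ, 8 with THI + CTD and 20 with IMZ + CTD, but at place 327 for CTD, where far more genes moved. These fold changes rest on few reads, from 4 to 16 per Control library and from 12 to 126 per treated library. The lowest count, 4 reads, has an exact Poisson 95% interval of 1.09 to 10.2 reads, which covers counting error only. The study itself had listed Cyp3a23/3a1, without an identifier, as up-regulated by every treatment in these libraries. By its qRT-PCR on RNA of the same livers the gene also rose with each treatment, and it stated that RNA-seq underestimated this rise.

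**Figure D1:**
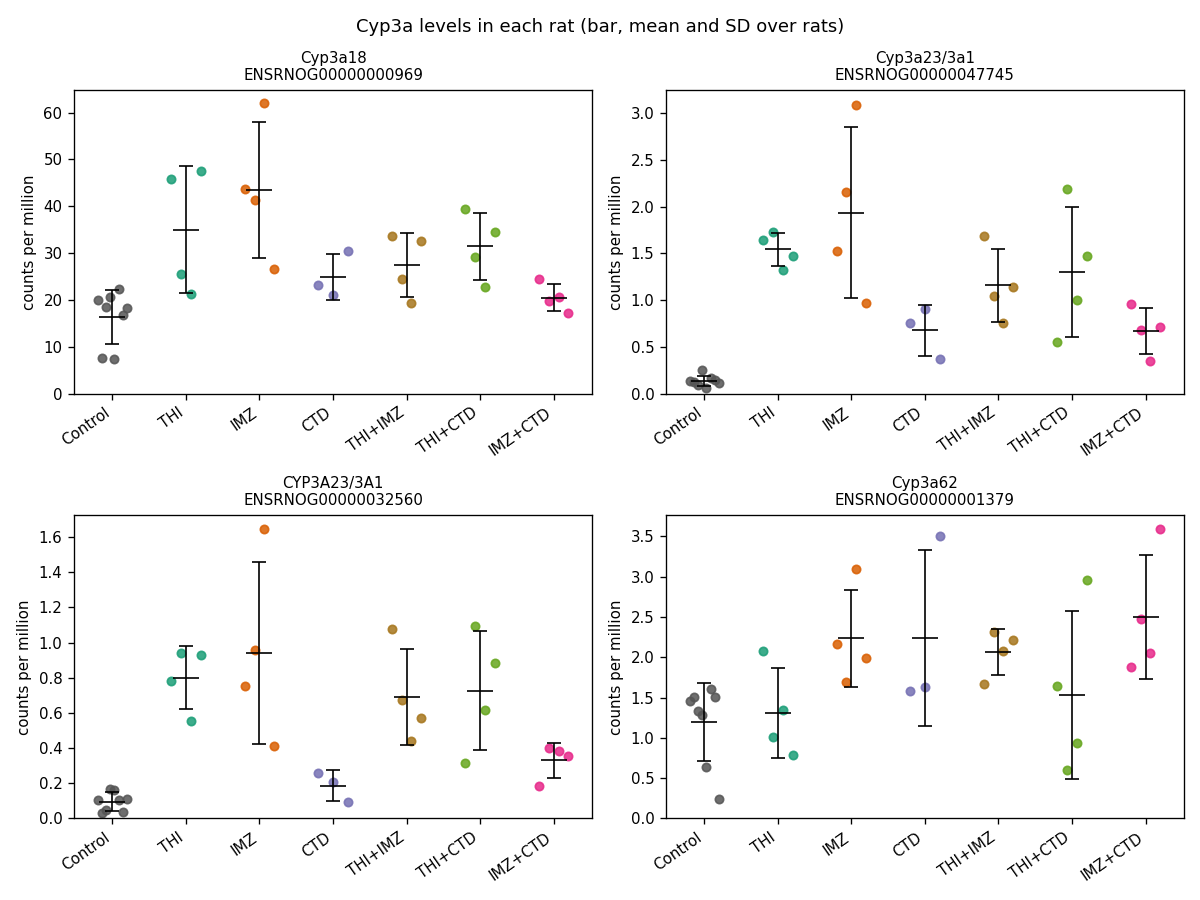
Level of each Cyp3a row in CPM (vertical axis, from 0) for every rat of the 7 groups (horizontal axis), with the mean and SD over rats as black bars. For Cyp3a23/3a1 (ENSRNOG00000047745) every treated rat lies above the highest Control rat at 0.247 CPM, whereas Cyp3a62 overlaps the Control range in THI, CTD and THI+CTD.

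CYP3A23/3A1 (ENSRNOG00000032560) was called up with every treatment except CTD, for which a rise was neither called nor excluded. Control rats measured from 0.0302 to 0.170 CPM with a median of 0.106. The THI rats measured 0.781, 0.938, 0.551 and 0.928 CPM, and the IMZ rats measured 0.752, 0.957, 1.64 and 0.411. The CTD rats measured 0.260, 0.207 and 0.0923 CPM, the last of which lies inside the Control range.

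In the mixtures the same row measured 1.08, 0.671, 0.441 and 0.570 CPM with THI + IMZ, and 0.313, 1.09, 0.617 and 0.886 CPM with THI + CTD. With IMZ + CTD it measured 0.185, 0.397, 0.382 and 0.353 CPM. All mixture rats lay above all Control rats, although the lowest IMZ + CTD rat exceeded the highest Control rat by a narrow margin.

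The log2 fold changes of CYP3A23/3A1 (ENSRNOG00000032560) were 2.96 ± 0.38 with THI (adjusted p = 2.59e-05), 3.18 ± 0.38 with IMZ (adjusted p = 5.21e-06), 2.74 ± 0.39 with THI + IMZ (adjusted p = 8.66e-05) and 2.82 ± 0.39 with THI + CTD (adjusted p = 2.98e-05). IMZ + CTD gave 1.68 ± 0.43 (adjusted p = 0.0353), a call that was lost when any of 9 rats, 6 Control and 3 IMZ + CTD, was left out, with an adjusted p of up to 0.144. CTD gave 0.89 ± 0.51 (adjusted p = 0.284), with a 95% interval from -0.14 to 1.92. Reads per library ran from 1 to 13 in Control and from 3 to 67 in treated rats, the single read having an exact Poisson 95% interval of 0.0253 to 5.57.

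Cyp3a18, a P450 known in rats for steroid hydroxylation, was the row with the most reads and moved less. Control rats measured from 7.41 to 22.4 CPM, with a median of 18.3. The THI rats measured 45.8, 25.4, 21.3 and 47.6 CPM, the IMZ rats 43.7, 41.4, 62.0 and 26.6, and the CTD rats 23.2, 21.04 and 30.4. The IMZ rats lay above all Control rats, and 1 THI rat and 1 CTD rat fell inside the Control range.

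With the mixtures Cyp3a18 measured 33.6, 24.5, 19.3 and 32.7 CPM in THI + IMZ and 39.4, 29.2, 22.7 and 34.5 CPM in THI + CTD. In IMZ + CTD it measured 24.4, 19.7, 20.7 and 17.3 CPM. The THI + CTD rats all exceeded the Control rats, the closest at 22.7 against 22.4 CPM, while 1 THI + IMZ rat and 3 IMZ + CTD rats did not.

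Cyp3a18 was up-regulated by IMZ, with a log2 fold change of 1.40 ± 0.25 (adjusted p = 0.00333), by THI, with 1.09 ± 0.25 (adjusted p = 0.0317), and by THI + CTD, with 0.93 ± 0.25 (adjusted p = 0.0237). The values for THI + IMZ (0.74 ± 0.25, adjusted p = 0.185), CTD (0.59 ± 0.28, adjusted p = 0.173) and IMZ + CTD (0.32 ± 0.26, adjusted p = 0.651) did not pass. The THI call was lost when either of THI replicates 1 and 4 or either of Control replicates 5 and 7 was left out (adjusted p up to 0.209), and when only the THI and Control rats were fitted (adjusted p = 0.13). The IMZ call was lost without IMZ replicate 3 (adjusted p = 0.0627) and the THI + CTD call without THI + CTD replicate 1 (adjusted p = 0.0994) or 4 (adjusted p = 0.0706).

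Cyp3a62, described mainly from the rat intestine, passed the test with no treatment. Control rats measured from 0.244 to 1.60 CPM with a median of 1.40. The IMZ rats measured 2.16, 1.69, 3.09 and 1.99 CPM, the THI + IMZ rats 1.66, 2.31, 2.07 and 2.22, and the IMZ + CTD rats 1.88, 2.47, 2.06 and 3.60. All 12 of these rats lay above all Control rats.

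The 3 other groups overlapped the Control range for Cyp3a62. The THI rats measured 2.07, 1.01, 1.35 and 0.786 CPM, the CTD rats 1.59, 1.63 and 3.51, and the THI + CTD rats 1.64, 0.602, 0.937 and 2.96. Its log2 fold changes ran from 0.11 ± 0.36 for THI (adjusted p = 0.969) to 1.06 ± 0.35 for IMZ + CTD (adjusted p = 0.138). IMZ gave 0.89 ± 0.35 (adjusted p = 0.453), CTD 0.89 ± 0.38 (adjusted p = 0.135), THI + IMZ 0.78 ± 0.35 (adjusted p = 0.39) and THI + CTD 0.35 ± 0.36 (adjusted p = 0.639). The 95% interval of the IMZ + CTD value, 0.34 to 1.77, leaves room for a rise of that size.

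Over the 4 rows and 6 treatments, 14 of 24 changes passed the test, all upward, and all 24 fold changes were above 0. Those of Cyp3a62 went below 0 for THI without THI replicate 1 (-0.20) or Control replicate 8 (-0.038) and with the replicate block (-0.097), and for THI + CTD without THI + CTD replicate 4 (-0.19). With THI 3 of the 4 rows rose, against 0.377% of all genes tested, with IMZ 3 against 0.191%, with CTD 1 against 6.62%, with THI + IMZ 2 against 0.849%, with THI + CTD 3 against 2.67% and with IMZ + CTD 2 against 1%. The share of all genes with every treated rat above every Control rat was 0.734% after THI (2 of the 4 rows), 0.713% after IMZ (4 rows), 5.33% after CTD (1 row), 0.794% after THI + IMZ (3 rows), 2.14% after THI + CTD (3 rows) and 1.61% after IMZ + CTD (3 rows). The 6 comparisons share the 8 Control rats and are not independent of each other. ENSRNOG00000047745 and ENSRNOG00000032560 carry the same symbol and matched a single RefSeq gene. These counts of rows are therefore not counts of separate genes, and most of the calls came from this pair.

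**Figure D2:**
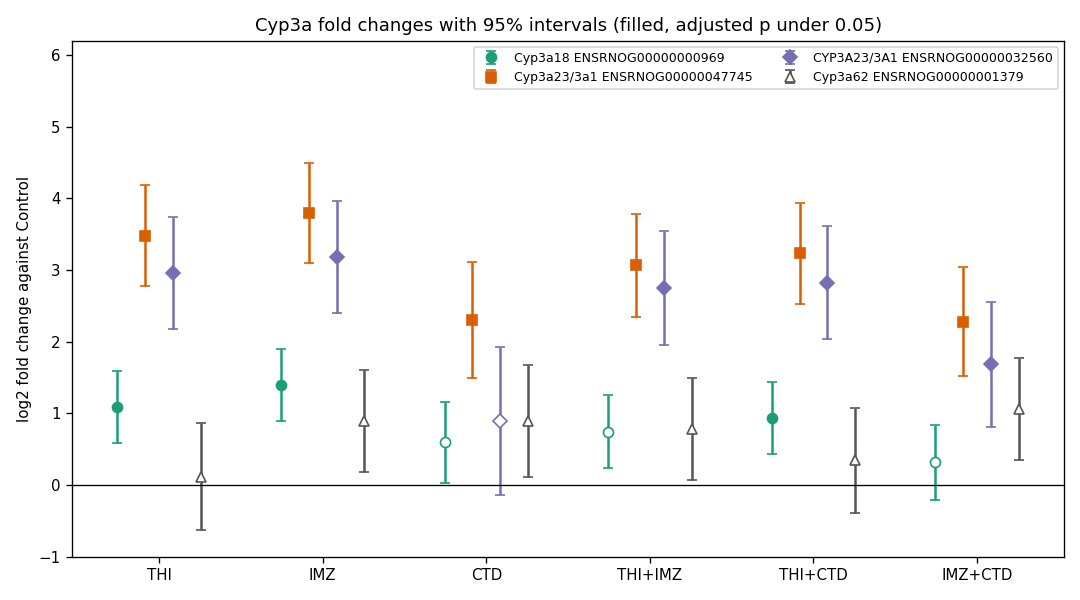
Log2 fold change against Control (vertical axis) of the 4 Cyp3a rows for the 6 treatments (horizontal axis), with 95% intervals from the edgeR fit, filled where the adjusted p was under 0.05. Cyp3a23/3a1 (ENSRNOG00000047745) is filled in all 6 treatments, from 2.28 to 3.80, and Cyp3a62 in none.

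Summed over rats, ENSRNOG00000047745 and ENSRNOG00000032560 took 66 and 51 reads in Control, 263 and 138 in THI, 338 and 164 in IMZ, 76 and 21 in CTD, 194 and 115 in THI + IMZ, 226 and 126 in THI + CTD, and 89 and 44 in IMZ + CTD. The share of the pair's reads held by ENSRNOG00000032560 was 39.9% ± 16.9 (SD, n = 8) in Control and 33.9% ± 3.95 (n = 4) in THI, 32.0% ± 2.27 (n = 4) in IMZ and 21.4% ± 3.73 (n = 3) in CTD. The Control and CTD shares differed by -18.5 percentage points, which did not pass a two-sided exact permutation test over rats (p = 0.103, adjusted p = 0.238 over 30 tests). The share was 37.1% ± 2.68 in THI + IMZ, 36.3% ± 2.17 in THI + CTD and 34.6% ± 14.7 in IMZ + CTD, each with n = 4. Across the 31 rats the rows' log2 CPM had a Pearson r of 0.909, and of 0.593 after the group means were taken out. The values come from the same libraries. Where the rows are near-identical copies, reads that map to both would not have been counted, so this is a description only.

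Added into a single row, the pair gave log2 fold changes of 3.30 with THI (adjusted p = 4.96e-08), 3.59 with IMZ (adjusted p = 1.05e-08), 1.87 with CTD (adjusted p = 0.000643), 2.95 with THI + IMZ (adjusted p = 6.73e-07), 3.09 with THI + CTD (adjusted p = 1.3e-07) and 2.07 with IMZ + CTD (adjusted p = 0.000851). All 6 passed, CTD and IMZ + CTD included, for which ENSRNOG00000032560 alone gave no call or a call that single rats decided.

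**Figure D3:**
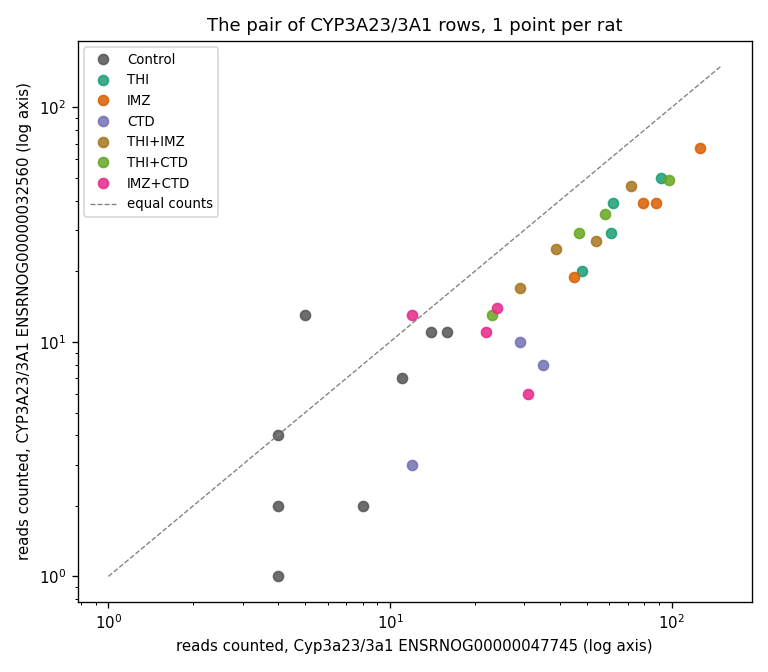
Reads counted for CYP3A23/3A1 (ENSRNOG00000032560, vertical log axis) against Cyp3a23/3a1 (ENSRNOG00000047745, horizontal log axis), 1 point per rat coloured by group, with the line of equal counts dashed. Treated rats extend to 126 and 67 reads, and the 3 CTD points, at 29 and 10, 35 and 8, and 12 and 3 reads, lie farther below the line than the THI and IMZ points. The IMZ+CTD point at 31 and 6 reads lies lower still. Control replicates 2 and 7, at 4 and 1 and at 8 and 2 reads, lie about as far below it as the CTD points.

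The share of the Cyp3a reads of a rat that fell to ENSRNOG00000047745 passed the test in 5 of 6 treatments, and that of ENSRNOG00000032560 in 4. Cyp3a18 held most of these reads in every group, between 78.8% and 97.5% per rat. The shares are of the reads of the 4 rows only. Cyp3a2, Cyp3a9 and other Cyp3a genes had no row, so the shares do not give the make-up of the family. Only uniquely mapped reads were counted, so where the CYP3A23/3A1 rows are near-identical copies their shares could be too low and that of Cyp3a18 too high. The share of ENSRNOG00000047745 rose from 0.787% ± 0.280 (SD, n = 8) in Control to 4.38% ± 1.51 (n = 4) in THI, 3.88% ± 0.787 (n = 4) in IMZ, 3.64% ± 0.578 (n = 4) in THI + IMZ, 3.89% ± 2.16 (n = 4) in THI + CTD and 2.79% ± 0.883 (n = 4) in IMZ + CTD. Each of these 5 differences had p = 0.00202 in the two-sided exact permutation test, the smallest value that 4 rats against 8 allow, and an adjusted p of 0.0121. In CTD the share was 2.60% ± 1.39 (n = 3; exact permutation p = 0.0182, adjusted p = 0.0545).

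The share of ENSRNOG00000032560 went from 0.618% ± 0.557 in Control to 2.21% ± 0.730 in THI, 1.84% ± 0.454 in IMZ, 2.17% ± 0.546 in THI + IMZ and 2.18% ± 1.06 in THI + CTD, each with an adjusted exact permutation p of 0.0202. The adjusted p for THI, IMZ and THI + CTD was 0.0545 without THI replicate 2 or 3, IMZ replicate 2 or 3, or THI + CTD replicate 2, 3 or 4, where 3 rats against 8 allow no raw p under 0.00606. The share was 0.716% ± 0.393 in CTD (adjusted p = 0.853) and 1.41% ± 0.490 in IMZ + CTD (adjusted p = 0.111; 0.0182 without Control replicate 5). The shares of Cyp3a18 and Cyp3a62 passed in no treatment, although those of Cyp3a18 in IMZ (adjusted p = 0.0455), THI + IMZ (0.013) and IMZ + CTD (0.013), of Cyp3a62 in IMZ + CTD (0.0303) and of ENSRNOG00000047745 in CTD (0.0385) passed without Control replicate 2, and that of Cyp3a62 in THI (0.0364) without Control replicate 8.

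Between treatments, all calls for the CYP3A23/3A1 rows involved CTD. IMZ exceeded CTD by a log2 difference of 1.50 ± 0.43 for ENSRNOG00000047745 (adjusted p = 0.0352) and of 2.29 ± 0.52 for ENSRNOG00000032560 (adjusted p = 0.00856). For ENSRNOG00000032560, THI exceeded CTD by 2.07 ± 0.52 (adjusted p = 0.0127), and CTD minus THI + IMZ was -1.86 ± 0.53 (adjusted p = 0.0297) and CTD minus THI + CTD -1.93 ± 0.52 (adjusted p = 0.0379). These 5 were the only calls among 60, of 4 rows in 15 pairs of treatments, and each rests on 3 CTD rats. All 5 were lost in fits of only the groups compared, with adjusted p-values of 0.104, 0.0705, 0.0536, 0.132 and 0.227 in the same order. CTD against IMZ + CTD was not called for ENSRNOG00000047745 (0.02 ± 0.44, 95% interval -0.87 to 0.91, adjusted p = 1) or ENSRNOG00000032560 (-0.80 ± 0.55, 95% interval -1.91 to 0.32, adjusted p = 0.463).

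Leaving out 1 rat also mattered here. The IMZ against CTD call for ENSRNOG00000047745 was lost without IMZ replicate 2 or 3 or CTD replicate 1 or 3 (adjusted p up to 0.145), and the THI against CTD call for ENSRNOG00000032560 without CTD replicate 3 (adjusted p = 0.0647). CTD against THI + IMZ was lost without any CTD rat or THI + IMZ replicate 1 (adjusted p up to 0.115), and CTD against THI + CTD without any CTD rat or THI + CTD replicate 2, 3 or 4 (adjusted p up to 0.157). With the pair of rows added together, THI exceeded CTD by 1.43 (adjusted p = 0.0246) and IMZ exceeded CTD by 1.72 (adjusted p = 0.00969), whereas CTD against THI + IMZ (adjusted p = 0.104) and against THI + CTD (adjusted p = 0.0999) did not pass.

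The share of all genes called was 6.62% for THI against CTD, 4.67% for IMZ against CTD, 6.29% for CTD against THI + IMZ, 2.67% for CTD against THI + CTD and 5.53% for CTD against IMZ + CTD. In the other pairs it was 0.01% for THI against IMZ, 0.01% for THI against THI + IMZ, 0.106% for THI against THI + CTD, 0.176% for THI against IMZ + CTD, 0.0502% for IMZ against THI + IMZ, 0.00502% for IMZ against THI + CTD, 0% for IMZ against IMZ + CTD, 0.171% for THI + IMZ against THI + CTD, 0.0653% for THI + IMZ against IMZ + CTD and 0.176% for THI + CTD against IMZ + CTD. IMZ against IMZ + CTD gave 0 genes by edgeR's quasi-likelihood test, against 72 by DESeq2 and 1863 genes at an unadjusted p under 0.05. In that pair the log2 difference was 1.08 ± 0.30 for Cyp3a18 (95% interval 0.47 to 1.69, adjusted p = 0.232), 1.52 ± 0.39 for ENSRNOG00000047745 (0.73 to 2.31, adjusted p = 0.183) and 1.50 ± 0.45 for ENSRNOG00000032560 (0.58 to 2.41, adjusted p = 0.285). THI and IMZ differed by -0.31 for Cyp3a18 (-0.91 to 0.29), -0.32 for ENSRNOG00000047745 (-1.07 to 0.42) and -0.22 for ENSRNOG00000032560 (-1.07 to 0.62), and these intervals do not show that the compounds acted alike.

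By mean level, Cyp3a23/3a1 (ENSRNOG00000047745) ran from IMZ at 1.94 CPM through THI at 1.54, THI + CTD at 1.30, THI + IMZ at 1.16, CTD at 0.676 and IMZ + CTD at 0.673 to Control at 0.135. CYP3A23/3A1 (ENSRNOG00000032560) ran from IMZ at 0.941 CPM through THI at 0.800, THI + CTD at 0.727, THI + IMZ at 0.690, IMZ + CTD at 0.329 and CTD at 0.186 to Control at 0.0953. Cyp3a18 ran from IMZ at 43.4 CPM through THI at 35.01, THI + CTD at 31.5, THI + IMZ at 27.5, CTD at 24.9 and IMZ + CTD at 20.5 to Control at 16.4. Cyp3a62 had its highest mean in IMZ + CTD, followed by CTD at 2.24 CPM, IMZ at 2.23, THI + IMZ at 2.07, THI + CTD at 1.53, THI at 1.31 and Control at 1.20. Of the neighbours in these 4 orders, only IMZ + CTD and Control for ENSRNOG00000047745 passed the test.

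Mixtures were set against the sum of the single log2 fold changes weighted by dose, 0.5 for THI and IMZ and 0.47 for CTD, which asks whether a mixture departs from the changes of its components scaled to their doses. None of the 12 differences passed. For Cyp3a23/3a1 (ENSRNOG00000047745) the measured minus expected log2 fold change was -0.57 for THI + IMZ (95% interval -1.24 to 0.09, adjusted p = 0.822), 0.41 for THI + CTD (-0.25 to 1.08, adjusted p = 0.725) and -0.70 for IMZ + CTD (-1.43 to 0.03, adjusted p = 0.375). For CYP3A23/3A1 (ENSRNOG00000032560) it was -0.33, 0.92 and -0.32, the THI + CTD value having a 95% interval of 0.14 to 1.70 (adjusted p = 0.426). For Cyp3a18 it was -0.50, 0.11 and -0.66, the IMZ + CTD value having a 95% interval of -1.21 to -0.12 (adjusted p = 0.237). Cyp3a62 gave 0.28, -0.13 and 0.19. Of all genes 0.0151%, 0.286% and 1.16% were called in the same 3 comparisons. 

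**Figure D4:**
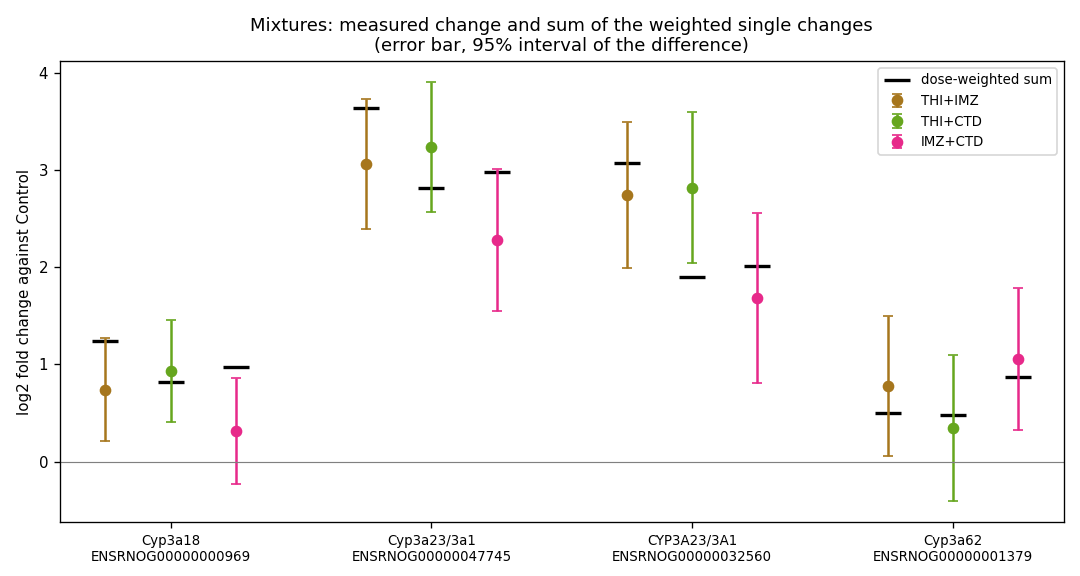
Measured log2 fold change against Control (dots) of each Cyp3a row in the 3 mixtures, and the dose-weighted sum of the single compounds (black bars), with the error bar showing the 95% interval of their difference drawn around the dot. For 10 of the 12 the black bar lies within the error bar, and the 2 exceptions, Cyp3a18 in IMZ+CTD and ENSRNOG00000032560 in THI+CTD, did not pass after adjustment over all genes.

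PXR itself did not rise in any treatment, whereas CAR rose in 3 of the 6. Of 13 rows for 12 genes of the PXR and CAR receptors and their partners, none was called in THI or IMZ, 2 rose and 1 fell in CTD, 1 rose in THI + IMZ, 1 rose in THI + CTD and 1 fell in IMZ + CTD. Of all genes tested, 0.166% fell in THI, 0.0603% in IMZ, 6.03% in CTD, 0.332% in THI + IMZ, 1.71% in THI + CTD and 0.452% in IMZ + CTD, beside the upward shares given with the Cyp3a rows, so 1 fall among 13 rows in CTD is near the share of all genes. Nr1i2, encoding PXR, fell by 0.37 ± 0.09 on the log2 scale in IMZ + CTD (adjusted p = 0.0368), and its values in the other treatments lay between -0.11 and 0.22. Nr1i3, encoding CAR, rose in CTD by 1.10 ± 0.29 (adjusted p = 0.00987), in THI + IMZ by 1.24 ± 0.26 (adjusted p = 0.0122) and in THI + CTD by 1.37 ± 0.26 (adjusted p = 0.00195), against 0.93 ± 0.27 in THI (adjusted p = 0.153) and 0.21 ± 0.27 in IMZ (adjusted p = 0.87). In IMZ + CTD no rise of Nr1i3 was called, and its values over the 6 treatments ran from 0.21 to 1.37. Rxra, the dimer partner of both receptors, fell by 0.34 ± 0.09 in CTD (adjusted p = 0.00801), and Med1, a subunit of the Mediator coactivator, rose there by 0.27 ± 0.08 (adjusted p = 0.0267).

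The other receptor partners did not pass in any treatment. Nr0b2, encoding the corepressor SHP, had values from 0.61 to 1.03. Cebpa, Hnf4a, the pair of Nr3c1 rows of the glucocorticoid receptor, Rxrb, the coactivators Ncoa1 and Ncoa3, and Ppargc1a had values between -0.44 and 0.42. The median over the list ran from -0.10 in CTD to 0.00 in THI, beside -0.07 and -0.01 over all genes.

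P450 enzymes need electrons and haem, so their partners were read as well. Of 6 genes, 2 rose in CTD, 3 in THI + IMZ, 2 in THI + CTD and none in THI, IMZ or IMZ + CTD. Of all genes tested, 6.62% rose in CTD, 0.849% in THI + IMZ and 2.67% in THI + CTD. In THI, IMZ and IMZ + CTD these shares were 0.377%, 0.191% and 1%. With DESeq2, 1 was called in THI and 1 in IMZ + CTD. Por, the reductase that passes electrons to microsomal P450s, rose in THI + IMZ by 0.82 ± 0.20 (adjusted p = 0.0338) and in THI + CTD by 0.84 ± 0.20 (adjusted p = 0.0122), with values of -0.39 in CTD and -0.40 in IMZ + CTD that did not pass. Pgrmc1, a haem-binding partner of P450s, rose in CTD by 0.52 ± 0.11 (adjusted p = 0.00132), in THI + IMZ by 0.42 ± 0.10 (adjusted p = 0.0308) and in THI + CTD by 0.52 ± 0.10 (adjusted p = 0.00196). Cyb5a, cytochrome b5, rose in CTD by 0.37 ± 0.09 (adjusted p = 0.007) and in THI + IMZ by 0.36 ± 0.08 (adjusted p = 0.0246). Cyb5r3, Alas1, which starts haem synthesis, and Hmox1, which breaks haem down, passed in no treatment, with values between -0.35 and 0.31.

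Part of a list of other known targets of PXR and CAR rose in each treatment. Of 24 genes listed, 20 had a row, and of these 9 rose in THI, 5 in IMZ, 9 in CTD, 8 in THI + IMZ, 10 in THI + CTD and 5 in IMZ + CTD. Of all genes tested, 0.377% rose in THI, 0.191% in IMZ and 6.62% in CTD. These shares were 0.849% in THI + IMZ, 2.67% in THI + CTD and 1% in IMZ + CTD. The study had already reported Abcc3, Aldh1a1, Cyp2b2, Ephx1, Gsta2 and Gstm1 from these libraries. The list was chosen with such results known, so the counts were partly set in advance. Only Cyp4f4 fell, in CTD, by 0.25 ± 0.07 (adjusted p = 0.0113). The medians were 0.54 in THI, 0.38 in IMZ, 0.47 in CTD, 0.45 in THI + IMZ, 0.67 in THI + CTD and 0.27 in IMZ + CTD, where the medians of all genes lay between -0.07 and -0.01. Cyp2b1, Cyp2b2, Abcc3, Gstm1 and Aldh1a1 rose in all 6 treatments, and Cyp2c7, Cyp2c13, Cyp2a1, Abcc2, Gstm4, Ces2c, Sult2a1, Cyp4f4 and Gadd45b rose in none. With DESeq2 the number of the 20 called in IMZ was 8 in place of 5.

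Cyp2b1 and Cyp2b2, the phenobarbital-inducible P450s that are the textbook CAR targets, had the highest medians. Cyp2b1 went from a mean of 0.504 CPM in Control to 264 CPM in THI, 158 in IMZ, 71.2 in CTD, 173 in THI + IMZ, 224 in THI + CTD and 18.7 in IMZ + CTD. Its log2 fold changes ran from 5.20 ± 0.83 in IMZ + CTD to 9.02 ± 0.88 in THI. Cyp2b2 ran from 3.65 ± 0.43 in IMZ + CTD to 5.96 ± 0.45 in THI + CTD. These 2 genes are near-identical copies, so reads that map to both could have been lost. At the other end of the list, Sult2a1, a bile acid and steroid sulfotransferase, had values from -0.46 to -0.16 that did not pass, and Ces2c was at most 0.0123 CPM in the mean of any group, too low for a fold to be given.

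**Figure D5:**
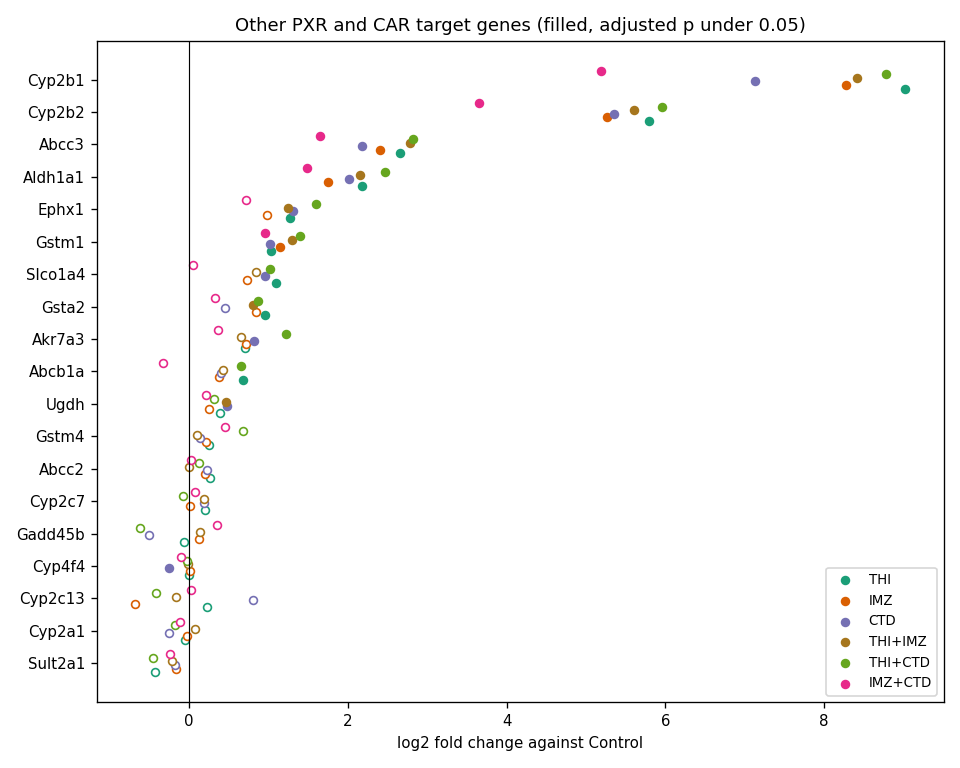
Log2 fold change against Control (horizontal axis) of 19 PXR and CAR target genes (vertical axis, sorted by their median over treatments) for the 6 treatments, filled where the adjusted p was under 0.05; Ces2c, at the limit of detection, is left out. Cyp2b1 reaches 9.02 in THI and 5.20 in IMZ+CTD, and IMZ+CTD has the lowest value for Cyp2b1, Cyp2b2, Abcc3 and Aldh1a1.

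The genes whose log2 CPM ran most like that of a Cyp3a row were sought among 10968 genes over the 31 rats, which differ in treatment and share their Control group. For Cyp3a23/3a1 (ENSRNOG00000047745) they were Abcc3 (Pearson r = 0.917), Cyp2b1 (0.914), Pir (0.898), Cyp2b2 (0.888), Grin2c (0.877), Gstm1 (0.858), Aldh1a1 (0.855) and Ugt1a2 (0.854). For CYP3A23/3A1 (ENSRNOG00000032560) they were Pir (0.949), Ugt1a2 (0.851), App (0.840), Cyp2b1 (0.837), Ces2i (0.835), Abcc3 (0.835), Ces1h (0.820) and Gstm1 (0.813). For Cyp3a18 they were Ugt1a2 (0.734), Slco1a4 (0.726), SLCO1A1 (0.708), Cyp2b1 (0.705), Ces1h (0.696), Entpd5 (0.693), Abcc3 (0.690) and Ces2i (0.674). Among these, Abcc3 is an export pump, Slco1a4 an uptake carrier and Ugt1a2 a glucuronosyltransferase.

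Cyp3a62 had weaker likeness, at most 0.591, with Tyw3, followed by Cln6, Prickle2, Blzf1, Zfp3, Cav2, Gtf2a2 and Zfp770 down to 0.540. With group means taken out, which leaves the differences between rats of a group, Pir (0.796) and Ugt1a2 (0.657) stayed among the 8 for ENSRNOG00000032560, with RGD1306151, Plod3, Ankle2, Prpf4, Ccdc47 and Mtf2 from 0.671 to 0.640. For ENSRNOG00000047745 the 8 were then Yod1, Agpat6, Nbeal1, Supt3h, BCL7B, Plekha8, Fbxo45 and RGD1310127 (0.715 to 0.601). For Cyp3a18 they were Itpripl2, Mettl20, Setdb1, Dpp4, Elk3, Dram1, Cdon and Pigyl (0.770 to 0.649), and for Cyp3a62 Zfp263, Zfp347, Med31, CCDC115, Lca5, Prickle2, Lrrc57 and Taf7 (0.643 to 0.570).

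Between the members, Cyp3a18 and the rows ENSRNOG00000047745 and ENSRNOG00000032560 had Pearson r of 0.755 and 0.696 over the 31 rats, falling to 0.341 and 0.225 with group means taken out. Cyp3a62 had 0.296 with Cyp3a18, 0.310 with ENSRNOG00000047745 and 0.153 with ENSRNOG00000032560. All r values are descriptions over rats that share libraries and treatments, and the low counts of 3 of the rows add counting noise to them.

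The genes next to the family on the RefSeq map gave a single call. Wasf3, Cdk8 and Rnf6 on the side of lower coordinates and Zscan25, Zfp655 and Zkscan5 on the other side flank Cyp3a18 and Cyp3a23-3a1. Among their 36 values over the 6 treatments only Cdk8 in CTD passed, with a log2 fold change of 0.48 (adjusted p = 0.00713). In CTD, 6.62% of all genes tested rose and 6.03% fell. With so few neighbours, the Cdk8 call does not set this region apart from all genes. The genes around Cyp3a62, which lies elsewhere on the chromosome, were Il3ra, Asmtl, Akap17a, Spry3, Vamp7 and Gjc3, and none of them passed in any treatment. Calls were rare among all genes in THI (0.377% up, 0.166% down) and IMZ (0.191% up, 0.0603% down). The lack of calls among the neighbours there therefore says little.

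Other cell types of the liver were read beside these results. In CTD 6.03% of all genes fell, in THI 0.166% and in THI + CTD 1.71%, while 2.67% rose in THI + CTD. Of the 6 Kupffer cell markers with a row (Clec4f, Cd163, Marco, Vsig4, Cd5l and Cd68), 1 fell in CTD and 1 in THI + CTD, and their summed level ran from 307 to 525 CPM in Control and from 232 to 534 CPM in treated rats. Of 8 lymphocyte markers 1 fell in THI + CTD, with sums of 15.8 to 24.1 CPM in Control and 12.5 to 23.02 CPM in treated rats. Of 6 periportal hepatocyte markers 3 fell in CTD and 1 in THI + CTD, with sums of 12964 to 17707 CPM in Control and 8638 to 14766 CPM in treated rats. Of 8 pericentral markers, the zone in which Cyp3a genes are mainly expressed, 1 fell in THI and 1 in THI + CTD, with sums of 6315 to 9322 CPM in Control and 5454 to 8243 CPM in treated rats. Of 6 stellate cell, 5 endothelial and 5 bile duct markers, those called were 1 stellate marker down in CTD, 1 up and 1 down in THI + CTD, and 1 endothelial marker down in each of these treatments. Their part in the Cyp3a values was not tested.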

How the data were processed

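Liver RNA of 31 rats was sequenced as paired-end reads from stranded total RNA libraries. Per the study's methods and the submitters' processing notes, the authors trimmed adapters, checked reads with FastQC 0.11.5, aligned them against Rnor_5.0 and took gene counts from STAR 2.5.2b. Gene counting in STAR uses uniquely mapped reads, so near-identical Cyp3a copies may lose reads. The annotation release and the strand setting are not given in the sources used here. The deposited count table holds raw counts per gene, and a second deposited table holds a normalized signal, which the authors made by dividing counts by DESeq2 1.15.1 size factors and which was not used for tests.

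Here, the 26312 rows were reduced to 19904 with a sum of at least 2 reads, as in the study. Counts were scaled by TMM and fitted over all 7 groups with the quasi-likelihood test of edgeR 4.0.16 (R 4.3.3, limma 3.58.1), with Benjamini-Hochberg adjustment over all genes and a threshold of 0.05. Each rat is an independent animal, so p-values measure the spread between rats. Fold changes have an SE from the F statistic. Shares of Cyp3a reads were compared by exact permutation over rats (Python 3.11.15). Simulated data with known changes were used to check the fit. DESeq2 1.42.0, other filters, scalings and fits, and leaving out each rat were alternatives.

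Named genes were all Cyp3a rows, all receptor and partner genes, the 2 highest and 2 lowest of the target list, others a result turned on, the 8 genes most like each row and the 3 nearest neighbours on each side. Members and lists were chosen with earlier results of these data known. The study states no pairing of rats by replicate number. Between treated and Control rats of the same number, the correlation of deviations from the group means was over 0.1 in 4 of 23 pairs (-0.168 to 0.316). For most treated rats a Control rat of another number correlated better, but this does not exclude a pairing. No libraries were identical.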

Additional observations from a re-analysis of the deposited data

Results flagged for a closer look

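In 54 groups of values tested, 4 were marked because a single rat lay far from the others of its group, and chance marks about 1 in 20. CYP3A23/3A1 (ENSRNOG00000032560) was low in IMZ + CTD replicate 1, at -2.44 on the log2 CPM scale, and its share of the Cyp3a reads there was 0.674%. Its share was high in Control replicate 5, at 1.92%. The share of Cyp3a62 was high in Control replicate 2, at 16.3%.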

How the results depend on the processing

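Cyp3a23/3a1 (ENSRNOG00000047745) passed against Control with all 6 treatments under every alternative run, no called value changed sign, and no call of a Cyp3a row changed with the size factors of DESeq2, filterByExpr, no filter or, where it gave an adjusted p, the DESeq2 test. The cause of the changes below was not tested.

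With the replicate block, Cyp3a18 no longer passed for THI (1.07, adjusted p = 0.0921) or THI + CTD (0.94, 0.0551), nor did CYP3A23/3A1 (ENSRNOG00000032560) for IMZ + CTD (1.73, 0.203), CTD against THI + IMZ (-1.86, 0.0532) or CTD against THI + CTD (-1.90, 0.0835). No pairing by replicate number is stated in the study, and the main fit had no block. With only the groups compared, calls were lost for Cyp3a18 in THI (1.09, 0.13), Cyp3a23/3a1 (ENSRNOG00000047745) for IMZ against CTD (1.50, 0.104), and CYP3A23/3A1 (ENSRNOG00000032560) in IMZ + CTD (1.70, 0.0709), for THI against CTD (2.07, 0.0536), IMZ against CTD (2.29, 0.0705), CTD against THI + IMZ (-1.86, 0.132) and CTD against THI + CTD (-1.93, 0.227), while Cyp3a18 passed for IMZ against IMZ + CTD (1.09, 0.0316). A newer quasi-likelihood method, chosen after seeing the data, gave 1.64 (0.119) for CYP3A23/3A1 (ENSRNOG00000032560) in IMZ + CTD. With the pair of rows summed, CTD against Control (1.87, 0.000643) and THI against CTD (1.43, 0.0246) passed, and CTD against THI + IMZ (-1.09, 0.104) and against THI + CTD (-1.22, 0.0999) did not.

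Genes called against Control numbered 108 for THI, 50 for IMZ, 2518 for CTD, 235 with THI + IMZ, 873 with THI + CTD and 290 with IMZ + CTD. DESeq2 gave 199 for THI, 150 for IMZ, 435 with THI + IMZ, 1386 with THI + CTD and 567 with IMZ + CTD, and the replicate block gave 45, 23, 1571 for CTD, 53, 348 and 80. IMZ and Control alone gave 93. Against the weighted sums, THI + IMZ gave 54 with DESeq2 and 6 with the block, THI + CTD 174 with DESeq2, and IMZ + CTD 391 with filterByExpr and 603 with DESeq2. Of the 15 pairs of treatments, the count moved by over 1.5 times in 13 with DESeq2, in 13 with only the groups compared and in 5 with the block.

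Leaving out each rat gave log2 values of 0.90 to 1.26 for Cyp3a18 in THI, 1.18 to 1.57 in IMZ and 0.81 to 1.06 in THI + CTD. For CYP3A23/3A1 (ENSRNOG00000032560) it gave 1.56 to 1.88 in IMZ + CTD, 1.77 to 2.38 for THI against CTD, -2.16 to -1.55 for CTD against THI + IMZ and -2.24 to -1.63 for CTD against THI + CTD, and for Cyp3a23/3a1 (ENSRNOG00000047745) 1.18 to 1.76 for IMZ against CTD. Genes called ran from 67 to 120 for THI, 28 to 61 for IMZ, 1470 to 2573 for CTD, 143 to 297 with THI + IMZ, 450 to 969 with THI + CTD and 98 to 366 with IMZ + CTD, and against the sums from 1 to 9, 30 to 75 and 66 to 285. Differences in share, in percentage points, ran for Cyp3a18 from -3.02 to -0.816 in IMZ, -5.24 to -3.03 in THI + IMZ and -7.36 to -3.94 in IMZ + CTD, for ENSRNOG00000047745 from 1.21 to 2.58 in CTD, for ENSRNOG00000032560 from 1.26 to 1.82 in THI, 1.05 to 1.41 in IMZ, 1.19 to 2.04 in THI + CTD and 0.687 to 1.03 in IMZ + CTD, and for Cyp3a62 from -4.59 to -2.45 in THI and 1.36 to 4.55 in IMZ + CTD.

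Values that passed no test changed sign in 25 results, none of them called under any of those alternatives. With the replicate block, Cyp3a62 gave -0.097 for THI and -0.049 for IMZ against CTD, and ENSRNOG00000047745 gave -0.0077 for CTD against IMZ + CTD (-0.21 with the rows summed). Cyp3a62 for IMZ against CTD gave -0.002 with the size factors of DESeq2 and -0.0047 with its test. Leaving out each rat, Cyp3a62 ran from -0.20 to 0.29 in THI, -0.19 to 0.61 in THI + CTD, -0.54 to 0.30 for THI against THI + CTD, -0.20 to 0.47 for IMZ against CTD, -0.082 to 0.22 for IMZ against THI + IMZ, -0.35 to 0.071 for IMZ against IMZ + CTD, -0.36 to 0.31 for CTD against THI + IMZ, -0.63 to 0.071 for CTD against IMZ + CTD, and against the sums -0.66 to 0.14 for THI + CTD and -0.044 to 0.41 for IMZ + CTD. ENSRNOG00000032560 ran from -0.47 to 0.18 for THI against IMZ, -0.11 to 0.41 for THI against THI + CTD, -0.040 to 0.63 for IMZ against THI + CTD and -0.37 to 0.19 for THI + IMZ against THI + CTD. ENSRNOG00000047745 ran from -0.0061 to 0.62 for THI against THI + CTD, -0.24 to 0.30 for CTD against IMZ + CTD and -0.42 to 0.20 for THI + IMZ against THI + CTD. Cyp3a18 ran from -0.030 to 0.33 for THI against THI + CTD and -0.017 to 0.24 for THI + CTD against the sum. Differences in share ran from -0.0485 to 0.322 for ENSRNOG00000032560 in CTD, -0.890 to 1.62 for Cyp3a62 in CTD and -1.34 to 0.804 in THI + IMZ. The share of ENSRNOG00000032560 in its pair ran from -5.66 to 1.80 in THI + IMZ, -6.43 to 1.03 in THI + CTD and -11.1 to 0.827 in IMZ + CTD. Of 18 counts of list members called, 3 moved with DESeq2.

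The values are limited by the 3 rats of the CTD group and by the 1 to 16 reads per Control library of the CYP3A23/3A1 rows.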
